A study of Mus musculus with 8 samples.

Results

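High-fat feeding was set against chow feeding at 24 weeks on 4 of the 8 arrays of the study, chosen by their labels: 2 arrays of cells from mice on control chow for 24 weeks (C24) and 2 from mice on a high-fat diet for 24 weeks (HF24). The mice were C57BL/6 males that were 6 weeks old when feeding began, and the high-fat diet held 60% fat. Abdominal subcutaneous fat was digested with collagenase, red cells were lysed, and the cells that stuck to uncoated plastic were grown, harvested before confluence, passaged and taken as the stem cell preparation, per the labels. The remaining 4 arrays, 2 on chow (C12) and 2 on the high-fat diet (HF12) for 12 weeks, share no array with the 24-week means, and were used to ask whether a change at 24 weeks differed from the change at 12 weeks. The titles call the 12-week groups young and the 24-week groups old, so feeding time and age cannot be told apart. The 12-week arrays also entered the same limma fit, so they took part in the estimate of spread behind the p-values. Whether the 2 arrays of a group stand for separate mice, separate cultures or a pool is not in the labels, so a p-value here weighs a change against the spread of these arrays alone, and that spread may be technical.

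Fat tissue is a mixture of adipocytes, stromal progenitors, vessel cells, nerve cells and immune cells, and plating keeps the cells that adhere. Stromal progenitors lay down matrix, secrete growth factors and can become adipocytes, and macrophages gather in fat when it expands under a fat-rich diet. Interferon gamma, made by T and NK cells, raises antigen presentation genes, guanylate binding proteins and T cell attracting chemokines, whereas the type I interferons act on a partly shared set that includes the antiviral Ifit and Oas genes.

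A level below is the log2 intensity of a probe minus the 75th percentile of its array, and a change is the HF24 mean minus the C24 mean, in log2 units, ± its standard error from limma (n = 2 arrays per group). A gene was called when its Benjamini-Hochberg adjusted p over all genes tested was under 0.05, and this holds for every change printed without a p. For a gene that neither array of the dimmer group measured well above background, an at-least fold is given. It sets the brighter mean against the lowest intensity that counts as well above background on each of those arrays. Where the gene's own level there was higher, that level was used instead. limma called 9805 of 29585 genes (33.1%), 3821 higher (12.9%) and 5984 lower (20.2%) in HF24, and 44.1% had an unadjusted p under 0.05. A fit of the 24-week arrays alone called 2624 higher and 4696 lower. The 3821 higher genes became 2248 without HF24 replicate 1, 2347 without C24 replicate 1 and 2472 without HF24 replicate 2. Changes of at least 2-fold were called upward for 402 genes (1.36%) and downward for 1830 (6.19%). They numbered 158 and 475 with normexp background correction, which added an offset of 50 to each intensity, and quantile normalization. With quantile normalization of the processed intensity, without that offset, they numbered 534 and 1347. The median change of all genes was −0.01. Every list count below is to be read beside the 12.9% higher and 20.2% lower of all genes. Among protein-coding genes alone, 17.5% were higher and 14.0% lower. A list count near these shares says nothing particular about its members. Probes well above background made up 60.3% and 62.4% of probes on the C24 arrays and 57.6% and 59.2% on the HF24 arrays, with a median intensity of 106.7 on both C24 arrays and of 89.7 and 89.5 on the HF24 arrays. Arrays of 1 group correlated across genes at r = 0.995 in both groups, and arrays of different diets at 0.982 to 0.985. The C24 arrays occupied slide columns 1 and 2 and the HF24 arrays columns 3 and 4, so diet and slide column cannot be told apart.

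The stromal label was checked first. All 9 defining stromal markers were well above background on all 4 arrays, among them the receptor gene Pdgfra, the surface protein gene Thy1 and the transcription factor gene Prrx1. So were all 6 macrophage markers, all 4 endothelial markers, all 4 skeletal muscle markers and all 3 keratinocyte markers, which adherent stromal cells are not defined by. Of the 3 B cell markers, 0 were above background on all 4 arrays. Detection on all arrays did not mean equal levels. Of the 9 stromal markers, 4 were lower in HF24: Pdgfra (−0.56), Nt5e (−0.40), Dcn (−0.73) and Lum (−1.92). Thy1 (0.20) was higher, with the limits given below, and all 6 macrophage markers were higher. In bulk RNA, fewer cells of a type and less RNA per cell cannot be told apart, and this holds for every marker list that follows.

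**Figure D1:**
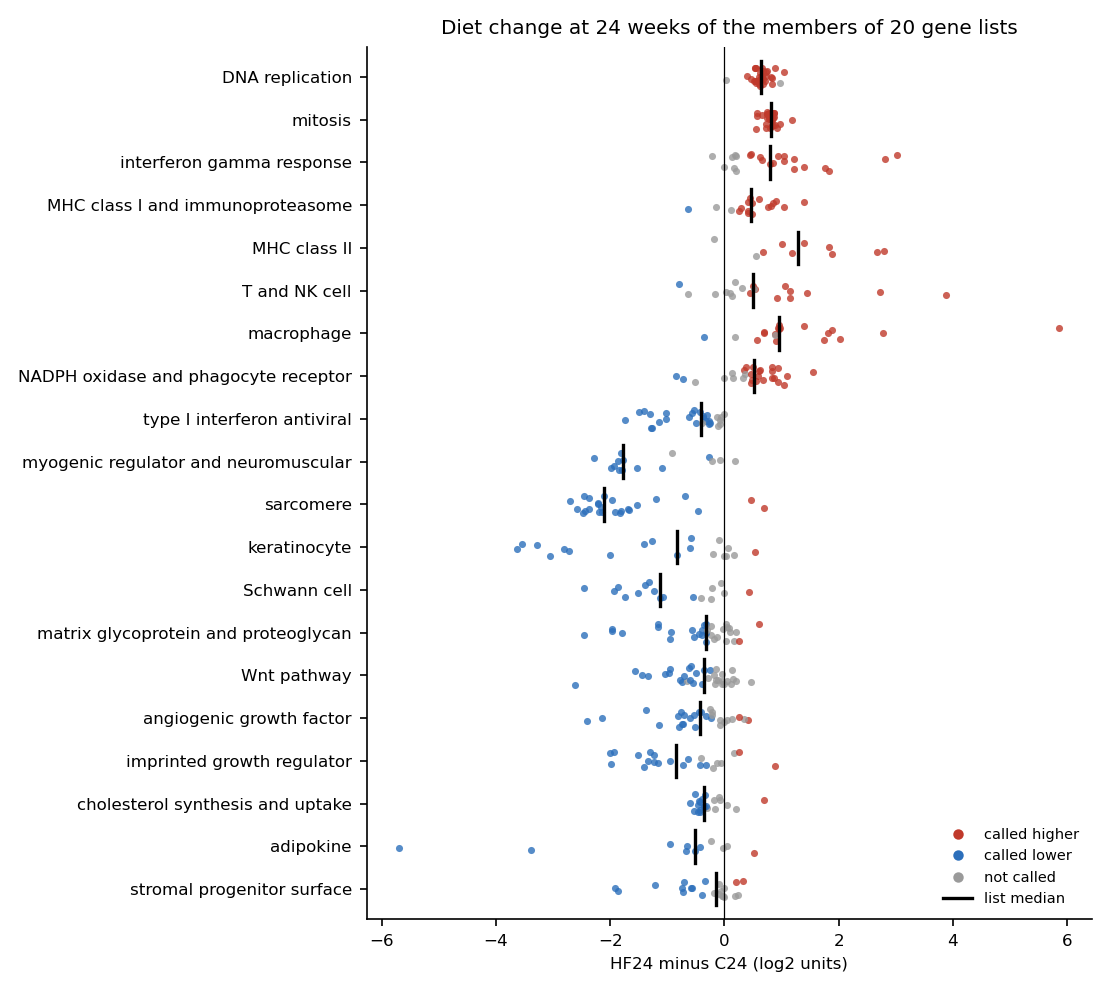
Each point is 1 gene, placed by its HF24 minus C24 change in log2 units; rows are 20 gene lists, red points were called higher, blue points lower and grey points were not called, and the black bar is the list median. The 2 cell cycle lists lie above 0 as narrow clouds with medians of 0.64 and 0.81, and the sarcomere list has the lowest median of the 20, −2.11.

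Genes of cell division were higher on the high-fat diet. Of 32 genes of DNA replication and S phase entry, 30 were higher and 0 lower, with a median change of 0.64. All 32 genes of mitosis were higher, with a median of 0.81 and changes from 0.55 to 1.18, and in all 32 both HF24 arrays lay above both C24 arrays, which was so for 33.7% of all genes. Pbk, a kinase gene of mitotic cells, was at −0.25 and −0.18 on the C24 arrays and at 1.02 and 0.91 on the HF24 arrays, a change of 1.18 ± 0.07 (adjusted p = 1.94e-04), or 2.26-fold. The thymidine kinase gene Tk1, which serves DNA synthesis, was at 1.07 and 1.1 against 2.14 and 2.13, a change of 1.05 ± 0.05. The groups did not overlap for either gene. Melk (0.97 ± 0.09), the cyclin gene Ccna2 (0.92 ± 0.06) and the kinesin gene Kif2c (0.89 ± 0.13) followed in the mitosis list. The other probe of Kif2c was not called (0.49). Among replication genes the helicase subunit genes Mcm5 (0.88 ± 0.08) and Mcm7 (0.84 ± 0.06) and the maintenance methylation cofactor gene Uhrf1 (0.84 ± 0.08) were the next largest. The 2 replication genes that were not called were Gins3 (0.02 ± 0.07, adjusted p = 0.859) and Ccne2, which was well above background on only 1 of the 4 arrays (adjusted p = 0.138). Ccne2 was called without C12 replicate 1 or 2 (adjusted p = 0.0117).

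Both cell cycle lists also differed from the 12-week comparison. At 12 weeks 13 replication genes were higher and 0 lower, against 13.7% and 17.6% of all genes, and 4 mitosis genes were higher and 3 lower. The test of the difference between the diet changes, 24 minus 12 weeks, was called for 31 mitosis genes, all above 0, and for 22 replication genes above 0 and 1 below, where 12.7% and 16.9% of all genes were called above and below 0. Pbk changed by 1.18 at 24 weeks and by −0.01 at 12 weeks, a difference of 1.19 ± 0.10. Mki67, which marks dividing cells, changed by 0.91 ± 0.06 at 24 weeks and by 0.37 at 12 weeks, a difference of 0.53 ± 0.08. The mitosis list summed, on a linear scale in units of each array's 75th percentile, to 91.7 and 91.9 on the C24 arrays, 158 on both HF24 arrays, 116 and 115 on C12 and 114 and 115 on HF12. The C24 arrays were thus the lowest of the 4 groups and the HF24 arrays the highest.

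Inhibitors of the cell cycle split. Of 15 genes, 5 were higher and 5 lower, and the 5 higher became 3 without C24 replicate 1, HF24 replicate 1 or HF24 replicate 2. Cdkn1c, an imprinted inhibitor gene of the CIP/KIP family, was at 1.83 and 1.85 on the C24 arrays and 0.36 and 0.31 on the HF24 arrays, a change of −1.51 ± 0.06. Cdkn2a (−0.86 ± 0.10) and the antiproliferative gene Btg2 (−0.80 ± 0.09) were lower too, while the INK4 family gene Cdkn2d (0.88 ± 0.07) was higher. Cdkn1a, which encodes p21, did not pass with the probe used here (−0.16 ± 0.09, adjusted p = 0.228), while its other probe was called lower (−1.21).

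Promoter sequences of the cell cycle and muscle genes that changed are shown because short motifs in them can be read beside the changes. Sequences are from RefSeq on GRCm38.p6, read 5′ to 3′ on the strand of the gene, and cover the 150 bases that end just before the annotated start. The members shown are, for the mitosis list and for the myogenic list, the called gene with the largest change among those holding a match in these bases. Not every promoter was considered for this choice. Capitals mark CCAAT in the mitosis gene Ect2 (0.87 ± 0.06) and CAGCTG, an E-box core, in Musk (−2.29 ± 0.11), the receptor kinase gene of the neuromuscular junction; both motifs were searched on both strands.
Ect2 (chr3:27153855-27154004, - strand): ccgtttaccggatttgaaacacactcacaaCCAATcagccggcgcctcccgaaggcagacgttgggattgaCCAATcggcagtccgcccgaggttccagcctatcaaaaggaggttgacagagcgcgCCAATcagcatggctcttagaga
Musk (chr4:58285812-58285961, + strand): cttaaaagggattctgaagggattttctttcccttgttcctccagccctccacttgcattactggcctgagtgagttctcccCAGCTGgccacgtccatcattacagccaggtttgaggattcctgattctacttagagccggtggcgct
Counted over 300 bases, 250 before to 50 after the start, CCAAT occurred in 74.1% of 27 promoters of the mitosis list and 59.4% of 32 promoters of the replication list, against 37.4% of all 32851 promoters. CAGCTG occurred in 33.3% of 12 promoters of the myogenic list and 34.8% of 23 of the sarcomere list, against 16.3% of all. These counts describe letters, and binding was not measured.

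The 2 interferon lists moved in opposite directions. Of 23 interferon gamma response genes tested, of 25 listed, 16 were higher and 0 lower, with a median of 0.8 (0.62 with undetected members at their bound). Of 28 type I interferon antiviral genes tested, of 30 listed, 0 were higher and 21 lower, with a median of −0.41. For each list, promoters are printed of the 2 called members with the largest change among those considered that held a match in the 150 bases shown. Here too, not every promoter was considered for the choice. Capitals mark GAAANNGAAA, the interferon-stimulated response element, and TTCNNNGAA, the gamma-activated site. Irf1 and Igtp belong to the first list and Ifit1 and Ifit3 to the second.
Irf1 (chr11:53769864-53770013, + strand): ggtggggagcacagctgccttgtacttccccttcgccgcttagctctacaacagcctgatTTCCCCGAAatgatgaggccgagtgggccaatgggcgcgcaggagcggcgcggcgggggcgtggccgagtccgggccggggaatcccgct
Igtp (chr11:58199406-58199555, + strand): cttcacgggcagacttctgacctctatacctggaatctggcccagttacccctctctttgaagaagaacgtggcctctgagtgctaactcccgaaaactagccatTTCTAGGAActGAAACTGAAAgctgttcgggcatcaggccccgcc
Ifit1 (chr19:34640739-34640888, + strand): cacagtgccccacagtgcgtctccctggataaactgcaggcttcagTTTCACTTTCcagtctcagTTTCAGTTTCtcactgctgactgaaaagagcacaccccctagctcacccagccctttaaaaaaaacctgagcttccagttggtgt
Ifit3 (chr19:34583379-34583528, + strand): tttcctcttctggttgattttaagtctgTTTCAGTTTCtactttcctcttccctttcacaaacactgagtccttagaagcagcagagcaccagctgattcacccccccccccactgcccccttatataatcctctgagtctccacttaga
The capitals in Irf1 are a gamma-activated site, those in Igtp are a gamma-activated site followed by a response element, and those in Ifit1 and Ifit3 are response elements on the other strand. Over 300 bases and both strands, a response element occurred in 50% of 20 promoters of the interferon gamma list and 42.3% of 26 of the type I list, against 3.4% of all promoters. A gamma-activated site occurred in 35.0% and 19.2% of these, against 8.3% of all. The motifs overlapped in 0.1% of all promoters.

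The interferon gamma response genes with the largest increases were Ubd, which encodes the ubiquitin-like modifier FAT10, and Cxcl9, a chemokine gene that draws T cells. Ubd was at −5.18 and −5.00 on the C24 arrays and −2.09 and −2.05 on the HF24 arrays, a change of 3.02 ± 0.09 (adjusted p = 4.85e-05), or 8.09-fold. Cxcl9 was at −2.0 and −1.94 against 0.83 and 0.85, a change of 2.81 ± 0.05 (adjusted p = 3.25e-05), or 7.02-fold. The GTPase genes Iigp1 (1.83 ± 0.07), Gbp4 (1.76 ± 0.15) and Igtp (1.05 ± 0.08), whose products act on vacuoles that hold pathogens, and the transcription factor gene Irf1 (1.22 ± 0.08) rose as well. Guanylate binding protein genes and immunity-related GTPase genes have close copies that 1 probe may not tell apart. Ifng itself was at −7.80 and −8.05 on the C24 arrays, not well above background on either, and at −4.15 and −3.95 on the HF24 arrays, well above it on both, which is at least 2.94-fold higher. The receptor subunit genes Ifngr1 (0.20, adjusted p = 0.119) and Ifngr2 (0.20, adjusted p = 0.0611) were not called.

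Among the antiviral genes, Ifit1, whose product binds viral RNA, was at 0.54 and 0.47 on the C24 arrays and −1.31 and −1.17 on the HF24 arrays, a change of −1.74 ± 0.09 (adjusted p = 1.38e-04), or 3.35-fold lower. The groups did not overlap. Oas2, which senses double-stranded RNA, changed by −1.50 ± 0.06, Ifit3 by −1.41 ± 0.08 and Usp18, which removes ISG15 from proteins, by −1.31 ± 0.06. The 7 members not called lay between −0.39 and 0.00.

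Time separated the lists further. At 12 weeks 2 interferon gamma response genes were higher and 17 lower, with a median of −0.82, and the difference between the diet changes was called above 0 for 17 of 23 genes and below 0 for 1. Cxcl9 changed by −2.18 at 12 weeks, and the difference was 4.99 ± 0.07. The type I list was lower at both times, with 4 higher and 17 lower at 12 weeks, a median of −0.36, and a called difference above 0 for 5 genes and below 0 for 10. For Usp18 the difference was −0.11 ± 0.09 (adjusted p = 0.388).

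**Figure D2:**
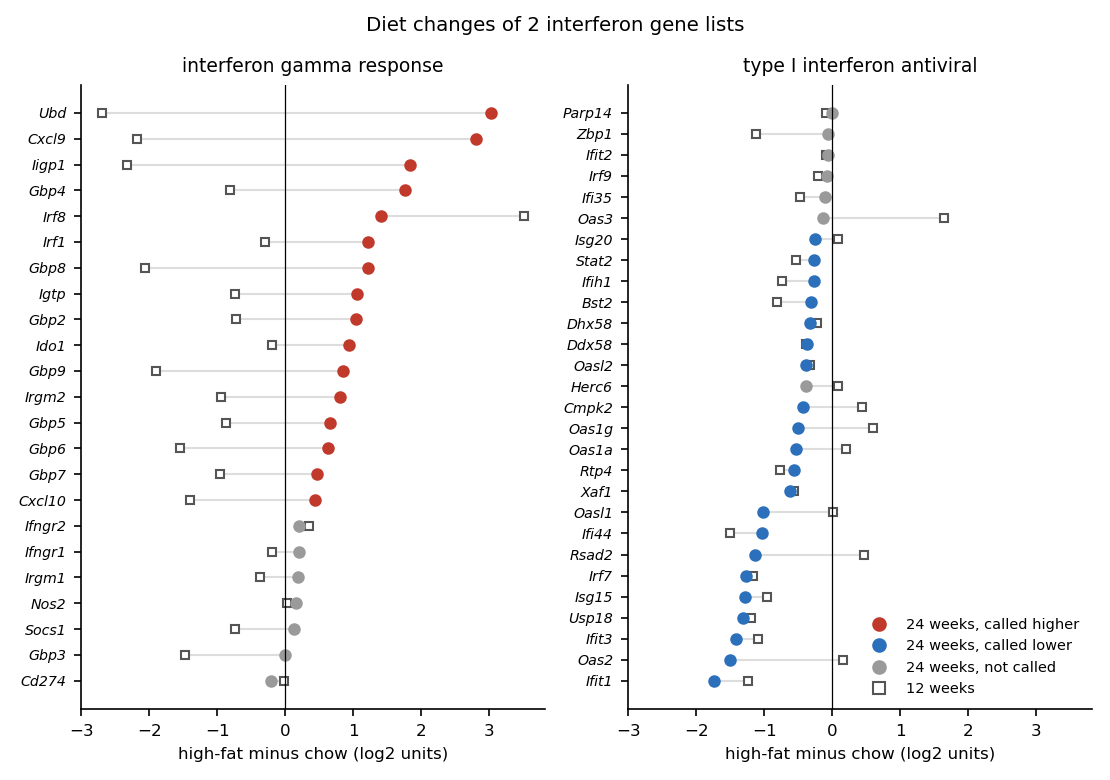
Each row is 1 gene of the interferon gamma response list (left) or the type I antiviral list (right), placed on the horizontal axis by its high-fat minus chow change in log2 units; circles are 24 weeks (red called higher, blue called lower, grey not called) and open squares are 12 weeks. At 24 weeks 16 genes on the left were called higher and 21 on the right lower, and Cxcl9 runs from −2.18 at 12 weeks to 2.81 at 24 weeks.

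Antigen presentation genes rose. Class II genes present peptides of engulfed proteins to CD4+ T cells, and 8 of the 10 tested (of 12 listed) were higher and 0 lower, with a median of 1.29. H2-Aa, a class II chain gene, was at −5.20 and −4.80 on the C24 arrays and −2.20 and −2.22 on the HF24 arrays, a change of 2.79 ± 0.17, or 6.91-fold. The invariant chain gene Cd74 (2.67 ± 0.13) and the chain genes H2-Eb1 (1.89 ± 0.06) and H2-Ab1 (1.84 ± 0.07) were next. At 12 weeks 8 class II genes were also higher. The difference between the changes was called above 0 for 1 class II gene and below 0 for 3. It was 0.01 ± 0.23 for H2-Aa (adjusted p = 0.984), 0.63 ± 0.09 for H2-Eb1 and −0.35 ± 0.10 for H2-Ab1. The class II list summed to 29.2 and 27.5 on C12 and to 192 and 200 on HF12. On C24 it summed to 73.8 and 71.7 and on HF24 to 143 and 152. Class I genes present peptides made inside the cell. Of 18 class I and immunoproteasome genes, 15 were higher and 1 lower at 24 weeks, with a median of 0.46, against 0 higher and 6 lower at 12 weeks, and the difference was called above 0 for 15 of them. Psmb9, an immunoproteasome subunit gene, was at 0.71 and 0.69 against 2.08 and 2.1, a change of 1.39 ± 0.06. The peptide transporter gene Tap1 (1.05 ± 0.07), the subunit gene Psmb8 (0.91 ± 0.09) and the class I activator gene Nlrc5 (0.85 ± 0.13) followed; the other probe of Nlrc5 was not called (−0.15). The single lower gene, chosen after its values were seen, was H2-Q4 (−0.64 ± 0.07); class I genes have near-identical copies that 1 probe may not tell apart.

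Genes of T and NK cells were higher in part. Of 25 genes 19 were tested, and 10 were higher and 1 lower, or 2 lower without C24 replicate 2. Nkg7, a gene of cytotoxic granules, was at −5.35 and −5.29 on the C24 arrays, well above background on 1 of them, and at −2.62 and −2.59 on the HF24 arrays, a change of 2.72 ± 0.16, or 6.57-fold. The granzyme genes Gzma (1.44 ± 0.18) and Gzmb (1.14 ± 0.09) and the adhesion gene Cd2 (1.15 ± 0.15) rose, whereas the T cell receptor chain gene Cd3e (0.10 ± 0.12, adjusted p = 0.548) and the pore-forming gene Prf1 (0.14 ± 0.07, adjusted p = 0.194) were not called. Cd28, a T cell costimulator gene named after its values were seen, was lower (−0.80 ± 0.09). The list summed to 6.00 and 5.94 on the C24 arrays and 6.5 and 6.62 on the HF24 arrays. Cd8a was not well above background on both arrays of any group. The macrophage list rose beside the interferon gamma, class I and class II lists, with 16 of 19 genes higher, and its part in those changes, like that of the T and NK cell genes, was not tested.

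Macrophage genes were higher. In a list of 19 genes, 16 were higher and 1 lower, with a median of 0.95, and 18 were well above background on all 4 arrays. The list summed to 126 and 131 on the C24 arrays and 253 and 248 on the HF24 arrays. The fractalkine receptor gene Cx3cr1 was at −6.77 and −6.81 on the C24 arrays, not well above background on either, and at −0.99 and −0.87 on the HF24 arrays, at least 25.5-fold higher. Aif1, which encodes the cytoskeletal protein IBA1, was at 0.14 and 0.03 against 2.86 and 2.85, a change of 2.77 ± 0.06, or 6.82-fold. The complement gene C1qa (2.03 ± 0.09) and the high-affinity Fc receptor gene Fcgr1 (1.89 ± 0.06) followed. Itgam, the CD11b gene, was lower (−0.36 ± 0.07), a call lost without HF24 replicate 2 (adjusted p = 0.0540), and its other probe was not called (0.25). Among all genes well above background on the 24-week arrays, the B cell and macrophage lectin gene Cd72 (2.68 ± 0.08), the complement receptor gene Vsig4 (2.98 ± 0.19), the Fc receptor-like gene Fcrls (2.97 ± 0.14) and the pyrin gene Mefv (2.81 ± 0.08) were in the top 10 increases.

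The subsets of macrophage genes did not move as 1 block. Of 15 resident macrophage genes tested, 8 were higher and 4 lower. Arg1, the arginase gene, was at −7.54 and −7.26 on the C24 arrays, not well above background on either, and at −2.69 and −2.61 on the HF24 arrays, at least 7.72-fold higher. The chitinase-like gene Chil3 (2.47 ± 0.19), the platelet factor gene Pf4 (1.55 ± 0.05) and the folate receptor gene Folr2 (1.49 ± 0.10) rose. The 4 lower genes, named after their values were seen, were the hyaluronan receptor gene Lyve1 (−1.48 ± 0.10), the growth arrest gene Gas6 (−1.29 ± 0.07), the lectin gene Clec10a (−1.03 ± 0.13) and the resistin-like gene Retnla, at least 1.47-fold lower; without C24 replicate 1 the call for Retnla was lost (adjusted p = 0.0582). Of 16 lipid-associated macrophage genes, 7 were higher and 1 lower, and the 7 fell to 4 without HF24 replicate 1; the apolipoprotein gene Apoe (1.33 ± 0.06), the phosphatase gene Acp5 (1.28 ± 0.09) and the lipid receptor gene Trem2 (1.03 ± 0.06) led it, and Lpl was lower (−0.91 ± 0.06). Of 28 genes of the NADPH oxidase and phagocyte receptors, 20 were higher and 2 lower, led by the oxidase subunit gene Ncf1 (1.56 ± 0.09) and the Fc receptor gene Fcgr4 (1.1 ± 0.06). Lysosome genes had 5 of 28 higher and 1 lower, with a median of 0.11; the 5 became 3 when any single array other than a C12 array was left out and 8 without C12 replicate 1 or 2, and the 1 lower was not called without any 1 of the 8 arrays. The protease gene Ctsc (1.34 ± 0.06) led them.

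Neutrophil and monocyte genes were split, with 4 of 13 higher and 4 lower. The calprotectin subunit gene S100a9 was at −5.89 and −7.86 on the C24 arrays, not well above background on either, and at −0.31 and −0.39 on the HF24 arrays, at least 38.2-fold higher. Its partner S100a8 was at −2.62 on both C24 arrays and at −0.96 and −1.02 on the HF24 arrays, a change of 1.63 ± 0.09. The C24 arrays of S100a9 lay far apart and those of S100a8 together, and neither gene's groups overlapped. The 4 higher genes became 2 without C24 replicate 1 or HF24 replicate 2. Dendritic cell genes had 2 of 9 higher and 3 lower, with a median of −0.07; the 3 fell to 0 without C24 replicate 1 or HF24 replicate 1 and to 1 without HF24 replicate 2. The integrin gene Itgax was higher in this list (1.20 ± 0.06), but its other probe was not called (−0.91). B cell genes had 0 of 7 higher and 2 lower. Mast cell genes had 2 of 9 higher and 0 lower, and the 2 became 1 without C24 replicate 1 or HF24 replicate 1.

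Compared with 12 weeks, macrophage changes were smaller. The macrophage list had 18 genes higher and 0 lower at 12 weeks with a median of 3.64, and the difference between the changes was called below 0 for all 19. Aif1 changed by 4.81 at 12 weeks, and the difference was −2.04 ± 0.08. The list summed to 54.9 and 56.7 on the C12 arrays and 342 and 335 on the HF12 arrays, so that at 24 weeks the chow arrays were higher and the high-fat arrays lower than at 12 weeks. Of the higher macrophage and myeloid genes named above, Chil3 (difference 1.76 ± 0.26), Apoe (2.34 ± 0.09), Acp5 (1.21 ± 0.13) and S100a8 (1.51 ± 0.13) went the other way. Arg1 and S100a9 were not well above background on any 12-week array, so no size is given for their difference; S100a9 was at −8.38 and −8.21 on the C12 arrays and −8.50 and −8.28 on the HF12 arrays.

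**Figure D3:**
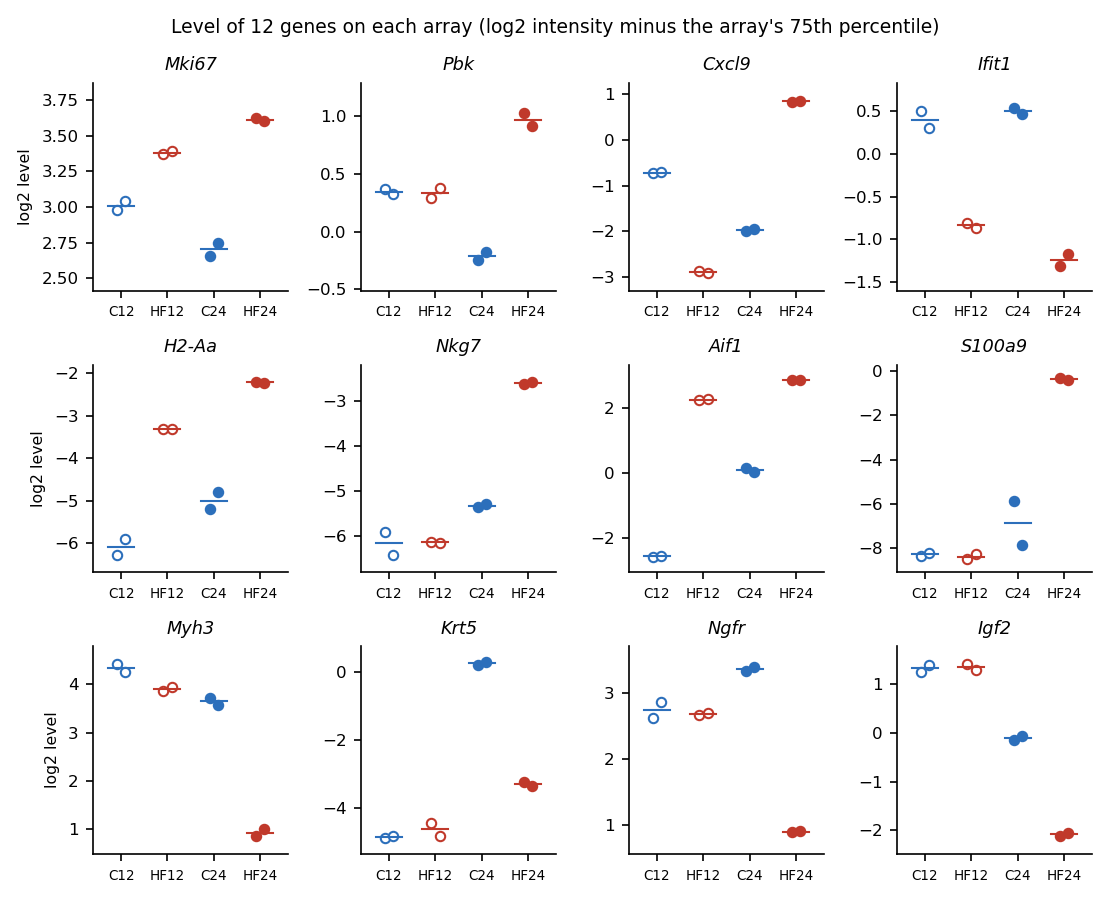
Each panel is 1 gene, with its log2 level (log2 intensity minus the array's 75th percentile) on the vertical axis, 1 point per array and a line at each group mean; blue is chow, red is high-fat diet, open points are 12 weeks and filled points 24 weeks. The panels show called genes picked for display, and at 24 weeks the red and blue points do not overlap in any of the 12. Among all genes, HF24 lay wholly above C24 in 33.7% and wholly below in 36%. The widest pair at 24 weeks is C24 for S100a9, at −5.89 and −7.86.

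Skeletal muscle genes were lower. Of 25 sarcomere genes, 23 were lower and 2 higher, and in those 23 both HF24 arrays lay below both C24 arrays, as in 36% of all genes. The list had a median of −2.11 (−1.96 with undetected members at their bound). At 12 weeks 2 of the 25 were higher and 11 lower, with a median of −0.22, and the difference between the changes was called below 0 for 21 and above 0 for 0. Of 15 myogenic regulator and neuromuscular genes tested, 11 were lower and 0 higher, with a median of −1.77. Myh3, the embryonic myosin heavy chain gene, was at 3.72 and 3.57 on the C24 arrays and 0.87 and 1.00 on the HF24 arrays, a change of −2.71 ± 0.09 (adjusted p = 5.32e-05), or 6.54-fold lower. The perinatal and adult myosin genes Myh8 (−2.48 ± 0.07) and Myh1 (−2.46 ± 0.05), which are close copies, and the creatine kinase gene Ckm, at least 2.27-fold lower, followed. Muscle genes outside the lists were among the largest decreases: Trdn (at least 6.98-fold), Srpk3 (at least 5.90-fold), Smpx (−2.72 ± 0.17) and Apobec2 (−2.50 ± 0.07). Myod1, the regulator that commits cells to muscle, was at −1.97 and −1.83 on the C24 arrays and −3.87 and −3.79 on the HF24 arrays, a change of −1.93 ± 0.10. The acetylcholine receptor subunit genes Chrng (−1.98 ± 0.10) and Chrna1 (−1.87 ± 0.06) fell beside it. The satellite cell gene Pax7 was not well above background on any of the 4 arrays.

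The 2 sarcomere genes that were higher, named after their values were seen, were Actc1 (0.47 ± 0.09) and Tpm2 (0.69 ± 0.08), which smooth muscle and stromal cells also express. Actc1 was not called when C24 replicate 1 was left out (adjusted p = 0.0566), nor when HF24 replicate 1 was (adjusted p = 0.0509), and a second probe of Tpm2 was lower (−0.88). The myogenic list summed to 17.0 and 16.6 on the C24 arrays and to 6.17 and 5.98 on the HF24 arrays. At 12 weeks it summed to 31.2 and 31.0 on chow and 32.5 and 32.3 on the high-fat diet, with 3 genes higher and 3 lower, and the difference between the changes was called below 0 for 12 of 15 genes. For Myod1 the 12-week change was −0.05 and the difference −1.88 ± 0.14.

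Keratinocyte, Schwann cell and mesothelial genes were lower too. Of 19 keratinocyte genes tested, of 26 listed, 12 were lower and 1 higher, with a median of −0.83. The basal keratin gene Krt5 was at 0.21 and 0.30 on the C24 arrays and −3.22 and −3.36 on the HF24 arrays, a change of −3.54 ± 0.13, or 11.7-fold lower. Its partner Krt14 (−3.28 ± 0.20), Krt17 (−3.06 ± 0.10), the junction gene Perp (−2.81 ± 0.06) and the desmosome gene Dsp, at least 2.76-fold lower, fell with it. The basal regulator gene Trp63 was not called with the probe used here (−0.20 ± 0.07, adjusted p = 0.0694), while its other probe was called lower (−1.61). Jup, a junction gene that many cells express and that was named after its values were seen, was higher (0.53 ± 0.13), a call that ended when C24 replicate 1 (adjusted p = 0.0835), HF24 replicate 1 (adjusted p = 0.0687) and likewise HF24 replicate 2 (adjusted p = 0.103) was left out. Skint4, an immunoglobulin family gene of skin, had the second largest at-least fold among decreases: it was at −2.88 and −1.50 on the C24 arrays and −7.56 and −7.71 on the HF24 arrays, at least 9.27-fold lower. The C24 arrays lay apart, and both were above both HF24 arrays. At 12 weeks 3 keratinocyte genes were higher and 6 lower. The difference between the changes was called below 0 for 8 and above 0 for 1. The list summed to 9.35 and 8.93 on C12 and 8.68 and 9.11 on HF12. On C24 it summed to 19.4 and 18.7, with HF24 in between. Krt5, Krt14 and Krt17 were higher on HF24 than on any 12-week array, and Perp was lower. Skint4 and Dsp were not well above background at 12 weeks. The cause of the high C24 levels was not tested.

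Of 17 Schwann cell genes tested, 11 were lower and 1 higher, with a median of −1.13. The neurotrophin receptor gene Ngfr was at 3.33 and 3.39 on the C24 arrays and 0.89 and 0.91 on the HF24 arrays, a change of −2.46 ± 0.09, or 5.49-fold lower. The axon growth gene Gap43 (−1.94 ± 0.22), the myelin gene Mal (−1.86 ± 0.07) and the cadherin gene Cdh19, at least 2.35-fold lower, followed, as did the lineage factor gene Sox10 (−1.39 ± 0.09). The 1 higher gene was Mbp, picked after its values were seen (0.43 ± 0.10), whose call was lost without C24 replicate 2 (adjusted p = 0.0728), HF24 replicate 1 (adjusted p = 0.086) and likewise HF24 replicate 2 (adjusted p = 0.0532). The other probe of Mbp was not called (−0.02). All 5 mesothelial genes tested, of 10 listed, were lower, 3 of them without C24 replicate 2. Msln, the mesothelin gene, was at −2.04 and −2.1 against −4.21 and −4.38, a change of −2.23 ± 0.08. The epithelial keratin gene Krt8 was at least 3.13-fold lower, its partner Krt18 changed by −1.46 ± 0.12, and the lineage factor gene Wt1 changed by −1.05 ± 0.21, a call lost without C24 replicate 2 (adjusted p = 0.0508). The Schwann list was higher at 12 weeks for 8 genes and lower for 1, and the difference between the changes was called below 0 for 14 of 17.

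Vessel genes were higher in part. Of 16 endothelial genes 9 were higher and 2 lower, with a median of 0.32, but the 9 fell to 4 without HF24 replicate 1 and to 5 without C24 replicate 2. The clotting factor gene Vwf was at 0.39 and 0.46 against 1.74 and 1.78, a change of 1.34 ± 0.07, and the junction gene Cldn5 changed by 0.66 ± 0.08. The 2 lower genes, Mmrn1 (−1.25 ± 0.11) and Prox1 (−0.62 ± 0.10), are known from lymphatic vessels. Of 16 pericyte and smooth muscle genes 8 were higher and 1 lower, and the 8 fell to 4 without C24 replicate 1 or HF24 replicate 1. The potassium channel gene Kcnj8 (1.75 ± 0.09) led them, ahead of the smooth muscle actin gene Acta2 (0.54 ± 0.09) and the signalling regulator gene Rgs5 (0.51 ± 0.08). The lower gene was the desmin gene Des, also picked after its values were seen (−1.1 ± 0.07).

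Genes known from stromal surface, matrix and secreted proteins were lower in part. Of 22 stromal progenitor genes 2 were higher and 10 lower, with a median of −0.15, and all 22 were well above background on all 4 arrays. The proteoglycan gene Lum was at 2.55 and 2.32 on the C24 arrays and 0.49 and 0.55 on the HF24 arrays, a change of −1.92 ± 0.10, or 3.78-fold lower. The semaphorin gene Sema3c (−1.87 ± 0.15), the complement regulator gene Cd55 (−1.22 ± 0.06) and the peptidase gene Dpp4 (−0.74 ± 0.05), which mark early adipose progenitors, were lower, while Pi16, of the same progenitors, was not called (−0.04, adjusted p = 0.824). The other probe of Dpp4 was not called (−0.42). At 12 weeks 3 genes of the list were higher and 13 lower, with a median of −0.40. Dpp4 (−2.06) and Cd55 (−1.76) fell more at 12 weeks than at 24, and Sema3c (−0.66) fell less. The difference between the changes was called above 0 for 7 genes and below 0 for 4. The 2 genes higher at 24 weeks, named after their values were seen, were Thy1 (0.20 ± 0.06) and the surface glycoprotein gene Cd24a (0.32). The call for Thy1 was lost without any 1 of the 8 arrays (adjusted p from 0.0544 to 0.167), and that for Cd24a without any 1 of the 24-week arrays (adjusted p from 0.0678 to 0.116).

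Of 32 matrix glycoprotein and proteoglycan genes 2 were higher and 17 lower, with a median of −0.32. Efemp1, a fibulin gene, was at 4.71 and 4.59 on the C24 arrays and 2.16 and 2.23 on the HF24 arrays, a change of −2.46 ± 0.09, or 5.50-fold lower. The proteoglycan genes Omd (−1.97 ± 0.11) and Ogn (−1.79 ± 0.05) and the fibrillin gene Fbn2 (−1.96 ± 0.07) followed; the 2 higher were Tnc (0.60 ± 0.08) and Mfap5 (0.26 ± 0.05), the call for Mfap5 being lost without C24 replicate 1 (adjusted p = 0.0636), HF24 replicate 1 (adjusted p = 0.0796) and likewise HF24 replicate 2 (adjusted p = 0.0536). The main fibrillar collagen genes were not called: Col1a1 changed by −0.03 ± 0.06 (adjusted p = 0.756), Col1a2 by −0.08 ± 0.06 (adjusted p = 0.307) and Col3a1 by −0.05 ± 0.06 (adjusted p = 0.565). Minor collagens made up the calls, with 7 of 22 lower and 1 higher: Col6a5 was at least 3.91-fold lower and Col4a6 at least 2.96-fold lower, and Col11a1 (−1.81 ± 0.09) and Col8a2 (−1.27 ± 0.09) fell as well. The higher one, Col8a1 (0.48 ± 0.10), was not called without HF24 replicate 2 (adjusted p = 0.0609). Clec3b, the tetranectin gene (−3.24 ± 0.27), the phosphodiesterase gene Gdpd2 (−3.82 ± 0.07) and the methyltransferase gene Inmt (−2.86 ± 0.10) were among the 10 largest decreases of genes well above background on the 24-week arrays. Gdpd2 had the lowest change of these, with levels of −0.24 and −0.29 on the C24 arrays against −4.18 and −4.00 on the HF24 arrays, 14.2-fold lower. Genes of bone, cartilage and tendon had 0 of 21 higher and 8 lower, with the tendon regulator Scx (−1.71), the tendon factor Mkx (−1.39) lower and the aggrecan gene Acan at least 1.04-fold lower.

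Secreted growth factors fell. Of 28 angiogenic and growth factor genes 2 were higher and 17 lower, with a median of −0.43. Vegfd, a ligand of lymphatic vessel growth, was at 4.79 and 4.87 on the C24 arrays and 2.71 and 2.67 on the HF24 arrays, a change of −2.14 ± 0.06, or 4.41-fold lower. Pleiotrophin, Ptn (−2.41 ± 0.11), Fgf10 (−1.37 ± 0.06) and the stromal chemokine gene Cxcl12 (−1.14 ± 0.12) followed. The 2 higher genes, named after their values were seen, were the placental growth factor gene Pgf (0.42) and the midkine gene Mdk (0.26); leaving out C24 replicate 1 ended the Mdk call (adjusted p = 0.0994), as did leaving out HF24 replicate 1 (adjusted p = 0.119). Imprinted growth genes, expressed from 1 parental copy and active in fetal growth, had 15 of 22 lower and 2 higher, with a median of −0.84. Igf2 was at −0.14 and −0.07 against −2.11 and −2.06, a change of −1.98 ± 0.08. Its neighbour H19, a non-coding RNA gene, was at 4.18 and 4.34 against 2.28 and 2.23, a change of −2.0 ± 0.08. Igf2 and H19 changed little at 12 weeks, by 0.01 and −0.13, and the differences were −1.99 ± 0.11 and −1.87 ± 0.11. The list as a whole was mostly lower at 12 weeks too, with 3 genes higher and 13 lower and a median of −0.46. The difference between the changes was called below 0 for 10 genes of the list and above 0 for 4. Nnat (−0.48) and Dlk1 (−0.74) were called lower at 12 weeks. The next values are again changes at 24 weeks. Nnat (−1.94 ± 0.09) and Dlk1 (−1.30 ± 0.09) were lower, and the 2 higher genes, named after their values were seen, were Mest (0.88 ± 0.07) and Snrpn (0.25 ± 0.06); the call for Snrpn was lost without any 1 of the 4 arrays of 24 weeks (adjusted p from 0.0629 to 0.136). In the insulin-like growth factor axis 3 of 19 were higher and 7 lower, with the binding protein genes Igfbp2 (−2.09 ± 0.07) and Igfbp4 (−1.19 ± 0.13) below.

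Signalling genes of the Wnt and TGF-beta families leaned lower. Of 35 Wnt pathway genes 0 were higher and 18 lower, with a median of −0.35. The ligand gene Wnt10a was at least 2.21-fold lower. Sfrp1, a secreted antagonist, was at 2.05 and 2.17 against 0.55 and 0.56, a change of −1.56 ± 0.10, and the agonist gene Rspo3 (−1.45 ± 0.10) and its receptor gene Lgr5 (−1.33 ± 0.16) fell as well. The pathway target gene Axin2 was not called (−0.19, adjusted p = 0.385). Of 33 TGF-beta and BMP genes 4 were higher and 16 lower, with the ligand gene Gdf10 (−1.72 ± 0.08) and the activin inhibitor gene Fst (−1.34 ± 0.10) lower and the ligand gene Bmp2 (0.94 ± 0.07) higher. Immediate early genes had 10 of 22 lower and 1 higher, among them the zinc finger factor genes Egr1 (−1.46 ± 0.08) and Egr2 (−1.23 ± 0.11), Ier2 (−0.84 ± 0.07) and Fos (−0.66 ± 0.08). The higher one, Jund (0.33 ± 0.09), was not called without any 1 of 5 arrays, among them C24 replicate 1 and both HF24 arrays (adjusted p from 0.0588 to 0.155).

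Chemokine and cytokine genes had 5 of 34 higher and 15 lower. Cxcl13, which draws B cells, was at −2.71 and −2.73 on the C24 arrays and −7.02 and −7.57 on the HF24 arrays, not well above background on either, at least 6.41-fold lower. The alarmin gene Il33 (−1.83 ± 0.10), the neutrophil chemokine gene Cxcl5 (−1.20 ± 0.09) and Il6 (−0.79 ± 0.09) fell, and the cytokine gene Tslp rose from −0.67 and −0.56 to 0.65 and 0.70, a change of 1.29 ± 0.08. Complement genes had 7 of 21 higher and 8 lower, with the C1q chain gene C1qa above and the central component gene C3 (−0.88) and the inhibitor gene Clu (−1.52) below.

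Genes of mature adipocytes were lower for the adipokines and mostly not called for the enzymes of lipid metabolism. Cfd, the adipsin gene, was at −1.67 and −1.50 on the C24 arrays and −7.61 and −6.95 on the HF24 arrays, not well above background on either, at least 14.1-fold lower. The adiponectin gene Adipoq was at −3.05 and −2.91 against −6.39 and −6.33, at least 5.35-fold lower. Of 11 adipokine genes 7 were lower and 1 higher, and the leptin gene Lep was not called (0.04, adjusted p = 0.742). Of 24 adipocyte lipid genes 2 were higher and 8 lower, with a median of −0.10; the 8 fell to 5 without C24 replicate 1, and the 2 to 0 without HF24 replicate 1 and to 1 without any other single array. The droplet coat gene Plin1 (−1.60 ± 0.09) and the lipase gene Lpl (−0.91 ± 0.06) fell, and Fabp4 (0.12, adjusted p = 0.174) and Fasn (−0.12, adjusted p = 0.233) were not called. Of 21 adipogenic factor genes 3 were higher and 5 lower, the 5 falling to 3 without C24 replicate 1 or HF24 replicate 1. Pparg, the factor that drives adipocyte formation, was at 2.33 and 2.35 against 2.53 and 2.54, a change of 0.20 ± 0.05; leaving out any single array other than the C12 arrays ended this call (adjusted p from 0.0567 to 0.129). At 12 weeks 18 of these factors were lower and 0 higher, 21 lipid genes were lower, and the difference between the changes was called above 0 for 13 factors and 18 lipid genes. For Pparg that difference was 1.58 ± 0.07. Adipokine genes were lower for 5 and higher for 1 at 12 weeks, when Cfd changed by −3.02 and Adipoq by −3.33. For Adipoq, not well above background on either HF24 array, the difference between the changes was not called (adjusted p = 0.752). Mean C12 levels were 7.87 for Cfd and 6.19 for Adipoq, far above those on the C24 arrays.

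Cholesterol genes had 14 of 22 lower and 1 higher, with a median of −0.35, and the 14 fell to 9 without C24 replicate 1 or HF24 replicate 1. The synthesis gene Idi1 was at 3.26 and 3.21 against 2.6 and 2.66, a change of −0.60 ± 0.07, and the synthesis gene Nsdhl (−0.54 ± 0.07) fell, while the sterol exporter gene Abcg1 (0.69 ± 0.06) rose. At 12 weeks 15 were lower and 1 higher, and the difference between the changes was called above 0 for 2 genes and below 0 for 2. Respiratory chain genes had 3 of 27 higher and 1 lower, the lower one being the muscle isoform gene Cox8b (−2.30 ± 0.08), and the 3 fell to 0 without C24 replicate 2 or either HF24 array and to 1 without C24 replicate 1. At 12 weeks 22 of them were lower and 0 higher, and the difference was called above 0 for 20. Of 25 hypoxia and glycolysis genes 13 were higher and 2 lower, with a median of 0.27; the 13 fell to 8 without HF24 replicate 1, and the 2 to 1 without C24 replicate 1 or HF24 replicate 1. The lactate exporter gene Slc16a3 (0.79 ± 0.05), Ankrd37 (0.73 ± 0.06) and the carbonic anhydrase gene Car9 (0.68 ± 0.09), whose other probe was not called (−0.02), rose and the peptide gene Adm (−1.22 ± 0.06) fell. The list counts that follow stand beside 12.9% higher and 20.2% lower of all genes, and 17.5% and 14.0% of protein-coding genes. Glutathione transferase genes led the antioxidant list, which had 8 of 24 lower and 3 higher, the 3 falling to 1 without any 1 of the HF12 or HF24 arrays: Gsta4 (−0.85), Gstt1 (−0.78) and Gstm1 (−0.74). Genes of the p53 response had 4 of 20 higher and 9 lower, the 9 falling to 4 without C24 replicate 1 or HF24 replicate 2 and to 5 without HF24 replicate 1, and the 4 to 2 without either C24 array or HF24 replicate 2; unfolded protein genes had 2 of 25 higher and 5 lower, the 5 falling to 3 without C24 replicate 1 or HF24 replicate 1; and genes of matrix turnover had 3 of 26 higher and 9 lower, the 9 falling to between 3 and 5 without any 1 of the 24-week arrays and the 3 to 1 without C24 replicate 1 or either HF24 array.

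Few position genes were called. Of 32 Hox genes tested in the 4 clusters, 3 were higher and 3 lower: Hoxa7 (0.34 ± 0.09), Hoxa2 (0.33 ± 0.06), Hoxc5 (0.39 ± 0.06), Hoxc13 (−0.70 ± 0.08), Hoxd10 (−0.67 ± 0.16) and Hoxb13, at least 1.42-fold lower. The calls for Hoxa2, Hoxa7 and Hoxd10 were lost without either HF24 array (adjusted p from 0.0518 to 0.125), and that for Hoxa7 also without C24 replicate 2 (adjusted p = 0.119) or either HF12 array (adjusted p = 0.0557). At 12 weeks the 4 clusters held 1 higher and 16 lower genes. Positional factors outside the Hox clusters had 2 of 27 higher and 6 lower, among them the limb factor gene Tbx4 (−0.83 ± 0.13); the 2 became 1 without any 1 of the C12, HF12 or C24 arrays.

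**Figure D4:**
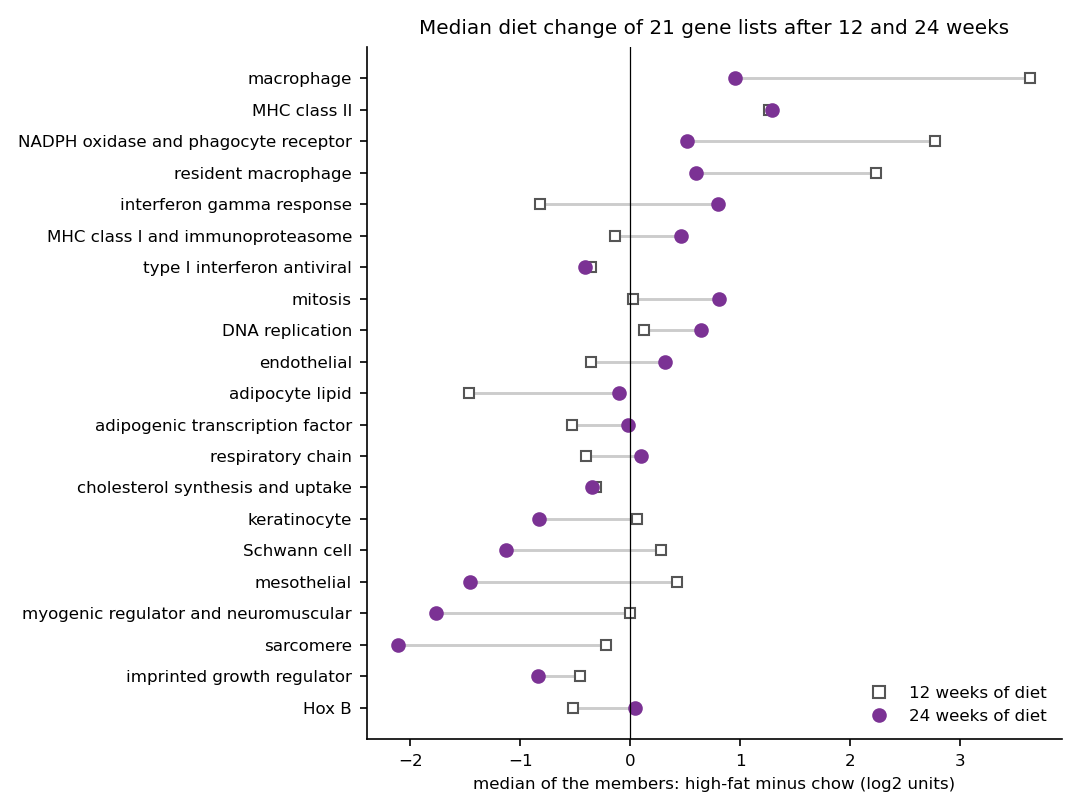
Each row is 1 of 21 gene lists, with the median high-fat minus chow change of its members in log2 units at 12 weeks (open squares) and at 24 weeks (purple circles). The macrophage median runs from 3.64 at 12 weeks to 0.95 at 24 weeks, the interferon gamma response median from −0.82 to 0.8 and the sarcomere median from −0.22 to −2.11.

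Across all genes the difference between the diet changes at 24 and 12 weeks was called for 8780 (29.7%), 3770 above 0 and 5010 below. Genes called in opposite directions at the 2 times with a called difference numbered 1121 (3.79%): 643 were higher at 24 and lower at 12 weeks (2.17%), and 478 the reverse (1.62%). The slide rows hold the 2 feeding times, and mice fed for longer were older. Slide row, age and feeding time thus cannot be told apart in these differences.

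Detection changed for a smaller set. Well above background on both C24 arrays and neither HF24 array were 845 genes, of which 618 were called lower, and 115 showed the reverse, of which 98 were called higher. Among the genes with the largest at-least folds, Wfdc21 (at least 7.54-fold lower) had C24 levels of −2.47 and −2.50, while others varied between arrays of a group. Aox4, an aldehyde oxidase gene, was at −7.72 and −7.92 on the C24 arrays and at −1.69 and −3.96 on the HF24 arrays, at least 6.85-fold higher. The purinergic receptor gene P2ry12, of microglia and macrophages, was at −6.42 and −5.65 against −2.12 and −4.15, at least 5.4-fold higher, a call lost without C24 replicate 1 (adjusted p = 0.0827). In both genes HF24 replicate 1 lay above HF24 replicate 2, and both lay above the C24 arrays. Fgd2, a myeloid exchange factor gene, was at least 7.04-fold higher with HF24 levels of −2.58 and −2.84.

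Called shares depended on the brightness and the kind of feature. Protein-coding genes were called higher more often than lower, 2722 (17.5%) against 2176 (14.0%) of 15573, whereas features with no symbol here were called higher for 964 (7.5%) and lower for 3628 (28.2%) of 12853. With genes split into 5 equal bins of mean signal, in bin 3, 40.6% of features with no symbol and 17.5% of protein-coding genes were called lower, and in the brightest bin 9.44% and 9.92%. Features with no symbol made up 1161 of the 1830 decreases of at least 2-fold.

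**Figure D5:**
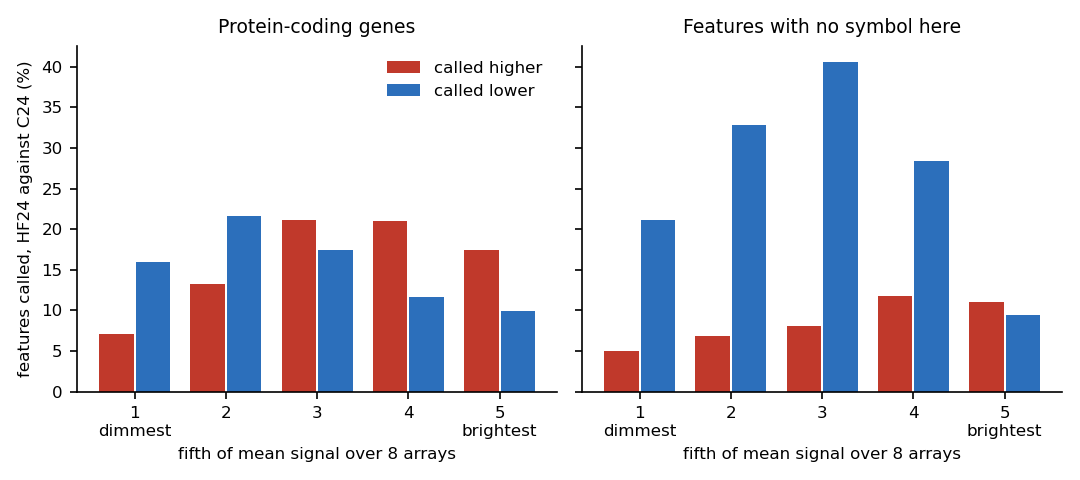
Bars give the percentage of features called higher (red) or lower (blue) in HF24 against C24, in 5 equal bins of mean signal over the 8 arrays from dimmest to brightest, for protein-coding genes (left) and features with no symbol here (right). In bin 3, 40.6% of features with no symbol were called lower against 17.5% of protein-coding genes, and in the brightest bin the shares were 9.44% and 9.92%.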

How the data were processed

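RNA of each sample was hybridised to 1 channel of an Agilent mouse array, and the scanner files deposited by the authors hold processed intensity per spot, made with Feature Extraction 11.0.1.1 per the file headers. The deposited value table holds log2 values of the same arrays, which equal log2 of the processed intensity minus 1 constant per array, and served as an alternative. The headers name the genome build mm9, so no coordinates were taken from the files.

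Spots other than controls were scaled by the 75th percentile of their array, put on the log2 scale and averaged per probe, after 192 probes with outlier flags were left out. Probes well above background on both arrays of at least 1 of the 4 groups were kept, and each gene was represented by its brightest probe, by mean level over all arrays. Symbols came from matching transcript accessions to a RefSeq table, which named 32907 probes (58.3%) and left 23506 unnamed. All 8 arrays entered 1 limma 3.58.1 fit (R 4.3.3, lmFit and eBayes, 4 residual and 1.87 prior degrees of freedom), with Benjamini-Hochberg adjustment over 29585 genes. The limma code was tested on simulated data. Figures used Python 3.11.15, pandas 2.3.3 and matplotlib 3.10.9. The precision is limited by the number of arrays, 2 per group, and 0 spots were saturated.

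The members and gene lists were chosen with earlier results of these data known. Named genes were drawn from the 10 highest and 10 lowest changes among called genes above background on all 24-week arrays, the 8 largest at-least folds each way, up to 4 called members of each list, and 5 further genes that the rule names (Pparg, Cdkn1a, Cdkn2a, Il6, Mki67). Defining markers of a list that were not called and members against its direction were added after values were seen. Same-numbered replicates of C24 and HF24 did not deviate together (r = −0.02 across genes), so the numbers were not used as pairs. Alternatives covered background correction, normalization, filters, probes, samples fitted and single arrays left out. A slide or scan block was not run, since the arrays share 1 slide and 1 scan. Some genes are not reported here.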

Additional observations from a re-analysis of the deposited data

Results flagged for a closer look

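For 35 of the genes named, the high-fat diet change was called in opposite directions at 12 and 24 weeks and the test of the difference between the 2 changes was called as well. Values below are that difference, 24 minus 12 weeks, in log2 units, and no explanation was tested.

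Among immune genes the difference was above 0 for Ubd (5.72), Cxcl9 (4.99), Iigp1 (4.16), Gbp4 (2.58), Igtp (1.79), Irf1 (1.52), Tap1 (1.54), Nlrc5 (1.34), Gzmb (2.63), Apoe (2.34) and Tslp (2.12). It was below 0 for Retnla (-4.40), Clec10a (-3.89), Cd28 (-2.40) and Cxcl5 (-1.80). Retnla was not well above background on either HF24 array and on only 2 of the 4 arrays of 12 weeks, and Gzmb on 0 of the 4 arrays of 12 weeks, so the differences of these 2 genes are fitted values near background and not measured sizes. The 24-week call for Retnla was also lost without C24 replicate 1 (adjusted p = 0.0582).

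Among genes of vessels, skin, nerve and mesothelium it was above 0 for Kcnj8 (2.62), Cldn5 (1.06) and Jup (1.09), and below 0 for Perp (-3.28), Msln (-2.75), Mal (-2.50) and Sox10 (-1.76).

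Among stromal, matrix and signalling genes it was above 0 for Cd24a (1.11), Mest (1.89), Snrpn (0.69), Bmp2 (1.52), Pparg (1.58), Hoxa7 (1.35) and Hoxc5 (0.61). It was below 0 for Omd (-2.63), Col11a1 (-2.60), Col8a2 (-2.11), Cdkn1c (-2.33), Sfrp1 (-1.90) and Fos (-1.97).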

How the results depend on the processing

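Over 206 named genes and 19 alternatives, 3879 gene and alternative pairs were run, of which 87 lost a call, 11 gained one and 0 reversed. Leaving out 1 array at a time gave 2248 to 3828 genes higher (main 3821), with 2248 without HF24 replicate 1, 2347 without C24 replicate 1 and 2472 without HF24 replicate 2. It gave 4469 to 5802 lower (main 5984), 378 to 512 higher and 1677 to 2067 lower by at least 2-fold, and 6170 to 7670 with a called difference between times. Genes changed by at least 2-fold numbered 158 higher and 475 lower with normexp, at an offset of 50, and quantile normalization. They numbered 534 higher and 1347 lower with quantile normalization of the processed intensity. When all 8 arrays had to be well above background, 229 were higher and 1068 lower, and fewer genes were tested. The cause of the shift with normexp was not tested. A fit of the 24-week arrays alone called 7320 genes, 7042 of them shared with the 9805. With the replicate block 3176 genes were higher and 5542 lower, and 8473 of the 8718 calls were shared; among named genes the block ended the calls for Jund, Pparg, Snrpn and Thy1. A 75th percentile over probes, added after seeing the data, called 10077 genes. Normalizations and filters moved the median change of all genes to at most 0.076. Genes near background have only bounds on their change.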
